A study of Mus musculus with 3 samples.

Results

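The nuclear genes for subunits of the mitochondrial respiratory chain and ATP synthase were described in mouse macrophages. A gene was taken as a member if it had a transcript annotated as protein-coding and a symbol of the families Ndufa, Ndufb, Ndufc, Ndufs, Ndufv, Sdha to Sdhd, Uqcr, Cox4 to Cox8 or Atp5. This rule found 85 gene IDs with 84 symbols among 21901 genes with a protein-coding transcript. Complex I had 35 of them, complex II 4, complex III 8, complex IV 20 and complex V, the ATP synthase, 18. Complex IV here includes Ndufa4, which is now known as a subunit of that complex, with its relative Ndufa4l2, and Cox7a2l, a factor that joins complexes III and IV. The symbol Atp5s belongs to a protein that is not a subunit, and a second gene ID named Atp5o had 0 counts in all 3 libraries. Leaving out these IDs, Cox7a2l and 8 tissue-specific paralogs, 74 subunit genes remained. The rule used symbols and annotation and no measured level. Members and lists were nevertheless chosen with earlier results of these data known.

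RNA of the cytosolic fraction was sequenced after removal of ribosomal RNA in 3 libraries, which form 1 group. The cells were bone marrow-derived macrophages of strain C57BL/6J, primary cells grown from marrow progenitors, exposed to Lipid A at 100 ng/ml, and RNA was taken after 40 min. Toll-like receptor 4 recognises Lipid A, the membrane anchor of lipopolysaccharide from bacteria. Each library began with 1 µg of RNA and has a labelled size range of 250 to 400. The labels number biological replicates 1, 2 and 3 and give them 1 shared donor record, without age or sex, so p-values cover only library-to-library spread, part of which may be technical. Untreated cells were not analysed here, so no value is a response to Lipid A, and no RNA of another fraction was compared.

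The respiratory chain passes electrons from NADH through complex I, or from succinate through complex II, to ubiquinone, and then through complex III and cytochrome c to complex IV, which reduces oxygen. Complexes I, III and IV pump protons across the inner mitochondrial membrane, and complex V uses their return to make ATP. A small set of core subunits is encoded in mitochondrial DNA, and every other subunit is made from nuclear genes in the cytosol and imported. Macrophages are known to alter the use of this chain when they meet bacterial products, with complexes I and II as sources of reactive oxygen and succinate as a signal.

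The total of expected counts per library was 37861150 in replicate 1, 37136495 in replicate 2 and 58889061 in replicate 3, of which the members took 0.398%, 0.405% and 0.368%. Levels are TPM of the gene table, a transcript abundance per length that is scaled to the same sum in each library. Nuclear protein-coding genes held 32.8%, 36.2% and 23.5% of that sum, so TPM of nearly every such gene was low in replicate 3, and 73 of 74 subunits were lowest there. Among nuclear protein-coding genes alone, the members' share of TPM was 1.52%, 1.53% and 1.47%. All 8 macrophage markers were above 1 TPM, with Lyz2, which encodes lysozyme, at 4282 to 7512 TPM. Markers of striated muscle summed to 0.10 TPM or less per library, those of male germ cells to 0.20 or less, those of smooth muscle, pericytes and fibroblasts to 0.24 or less and those of erythroid cells to 0.05 or less. Neutrophil markers summed to 24.3 to 28.0 TPM, most of it from S100a9, with Ly6g at 0 counts in all 3 libraries. Ngp had 2.18, 3.09 and 3.13 TPM, Ltf 0.46, 0.66 and 1.16 TPM and Camp 0.10, 0.11 and 0.34 TPM. Whether these reads came from cells other than macrophages was not tested.

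Promoter windows were examined because the chain's subunit genes fell into expressed genes and paralogs with few or no counts. RefSeq windows on build GRCm38.p6 run from 250 bases before to 50 after a start site, and were matched by symbol for 61 of the 74 subunits and 4 tissue-specific paralogs. The factors NRF1, GABPA, YY1 and the estrogen-related receptors are known regulators of respiratory genes, and their motifs were searched on both strands as GCGCNTGCG, CCGGAAG, AANATGGC and TNAAGGTCA. The NRF1 motif reads nearly the same on both strands, so a site can be matched on each at positions 1 base apart. The 3 windows that follow were chosen because an NRF1 and a GABPA motif both lie within the 150 bases before the start site. They are printed 5′ to 3′ with the motifs in capitals.

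Sdhd, chr9:50603850-50603999, minus strand: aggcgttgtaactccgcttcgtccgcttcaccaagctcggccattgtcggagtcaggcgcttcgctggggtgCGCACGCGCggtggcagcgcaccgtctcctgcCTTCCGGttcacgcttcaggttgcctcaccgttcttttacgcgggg
Cox6a1, chr5:115348959-115349108, minus strand: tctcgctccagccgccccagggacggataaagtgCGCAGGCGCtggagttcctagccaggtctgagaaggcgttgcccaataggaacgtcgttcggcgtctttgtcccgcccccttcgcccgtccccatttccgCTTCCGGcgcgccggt
Atp5h, chr11:115419920-115420069, minus strand: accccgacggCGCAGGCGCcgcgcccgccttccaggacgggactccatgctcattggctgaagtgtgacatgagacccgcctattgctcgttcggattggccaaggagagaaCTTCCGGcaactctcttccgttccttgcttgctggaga

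These genes encode a membrane anchor of complex II, a subunit of complex IV and a subunit of the peripheral stalk of ATP synthase. Their levels were 42.5 ± 8.48, 109 ± 27.7 and 119 ± 35.0 TPM (SD, n = 3). In each, the GABPA motif was read on the other strand and began 46, 16 and 38 bases before the start site, and the NRF1 motif began 78, 116 and 140 bases before it. Over all windows of 300 bases, the NRF1 motif was in 24 of 66 subunit windows (36.4%) and in 8.61% of 21263 windows of protein-coding genes. The GABPA motif was in 16 of 66 (24.2%) against 11.6%, the YY1 motif in 16 of 66 (24.2%) against 6.37%, and the receptor motif in 3 of 66 (4.55%) against 1.03%. No motif was in any of the 4 paralog windows, those of Cox7a1, Cox6b2, Cox7b2 and Cox8b. Of the 61 subunits, 43 had at least 1 of the 4 motifs in the window nearest the start of their main transcript. The same share over all protein-coding genes was not computed, so this count cannot be read as an excess. A match describes the letters only and is not evidence of binding. The NRF1 and GABPA letters contain the dinucleotide CG, and the shares were not adjusted for its frequency in the windows.

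The windows also differed in CpG dinucleotides, the sites of DNA methylation, which cluster in promoters of widely expressed genes. The next 4 windows show both members of 2 paralog pairs, the broadly expressed gene before the muscle gene, each with the 150 bases before the start site and with CpG in capitals.

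Cox8a, chr19:7217617-7217766, minus strand: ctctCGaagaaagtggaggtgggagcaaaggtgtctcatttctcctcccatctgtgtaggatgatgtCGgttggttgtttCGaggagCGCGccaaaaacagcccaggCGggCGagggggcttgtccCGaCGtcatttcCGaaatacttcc
Cox8b, chr7:140900447-140900596, minus strand: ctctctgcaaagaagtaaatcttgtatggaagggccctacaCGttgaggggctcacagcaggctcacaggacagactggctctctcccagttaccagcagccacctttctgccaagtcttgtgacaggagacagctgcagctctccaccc
Cox7a2, chr9:79759854-79760003, minus strand: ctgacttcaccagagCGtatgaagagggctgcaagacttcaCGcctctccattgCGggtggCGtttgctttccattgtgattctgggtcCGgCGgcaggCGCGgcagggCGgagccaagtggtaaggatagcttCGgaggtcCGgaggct
Cox7a1, chr7:30184021-30184170, plus strand: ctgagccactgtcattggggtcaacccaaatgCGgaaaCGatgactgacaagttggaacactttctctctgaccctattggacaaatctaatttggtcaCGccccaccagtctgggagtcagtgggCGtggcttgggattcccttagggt

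The stretch before Cox8a held 10 CpG and that before Cox8b 1. The stretch before Cox7a2 held 11 and that before Cox7a1 4. Over the 300-base window, observed CpG relative to the number expected from base composition was 0.842 for Cox8a, 0.115 for Cox8b, 0.833 for Cox7a2 and 0.333 for Cox7a1. The median was 0.795 over the nearest windows of 61 subunits, with a range of 0.368 to 1.14. It was 0.382 over the 4 paralogs, with a range of 0.115 to 0.564. With every window counted, it was 0.801 over the 66 of subunits and 0.567 over the 21263 of protein-coding genes. The ranges of subunits and paralogs overlapped, since Cox7b, a subunit with 34.6 ± 11.1 TPM, had the lowest value of the subunits. Its testis paralog Cox7b2 was higher, at 0.564 against 0.368, with 7 CpG against 3 before the start site. This pair thus ran opposite to the printed pairs, while Cox6b2 at 0.432 was below Cox6b1 at 0.807.

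All 74 subunits were above 1 TPM. Of all 85 members of the rule, 77 were at 1 TPM or more. The 8 members under it had been left out of the 74, as tissue-specific paralogs or as the second Atp5o ID. Every subunit had a mean level above 6.11 TPM, the median of the 11445 nuclear protein-coding genes detected at 0.1 TPM or more. Among subunits, 44 of 74 (59.5%) were in the highest 10% of those genes, which began at 41.7 TPM. Both statements are by gene level. In coding transcripts alone, Ndufs4 at 4.83 and Ndufa5 at 5.72 TPM were below 6.11 TPM. Ndufc1, Atp5j and Atp5f1, in the highest 10% by gene level, were below 41.7 TPM in coding transcripts. The median over subunits was 52.6, 53.7 and 36.6 TPM in replicates 1, 2 and 3, against 6.54, 7.05 and 4.75 TPM over the detected genes. The range over subunits was 27.4-fold, from Ndufb4 at 8.70 to Atp5b at 238 TPM in mean. On protein-coding transcripts alone it was 44.1-fold, from Ndufs4 at 4.83 to Cox4i1 at 213 TPM. The main transcript of a gene was the one with the highest mean TPM, so its choice rests on level. In 5 subunits it was not annotated as protein-coding. Main transcripts of subunits were short, with a median of 652 bases against 2662 for detected genes. Across the 74 subunits, the mean level and the length of the main transcript had a Spearman correlation of -0.51. Across 11436 detected genes it was -0.04. These are descriptions across genes, which share the same libraries and the same length correction.

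Among the 74 subunits, complex IV had the highest median level and complex I the lowest in every library. With all members of the rule, paralogs included, the median of complex IV was 57.9 TPM, below those of complexes III and V, at 71.9 and 63.97 TPM. The median over complex I subunits was 33.3, 39.8 and 23.4 TPM in replicates 1, 2 and 3. That over complex II was 47.9, 49.0 and 34.0 TPM, above complex I in each library. That over complex IV was 110, 140 and 87.4 TPM. Complexes III and V changed places between libraries, with 78.9, 81.3 and 55.5 TPM for complex III and 82.7, 73.3 and 50.4 TPM for complex V, and so were not separated. As means, these medians were 32.2 ± 8.27, 43.6 ± 8.34, 71.9 ± 14.2, 112 ± 26.6 and 68.8 ± 16.6 TPM for complexes I to V (SD, n = 3). On TPM rescaled to nuclear protein-coding genes, which removes the shift of replicate 3 and by construction keeps the order within a library, the SD of complex I became 5.65 on a mean of 104. The subunits in the highest 10% of genes were 11 of 35 in complex I, 3 of 4 in complex II, 5 of 8 in complex III, 10 of 11 in complex IV and 15 of 16 in complex V.

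**Figure D1:**
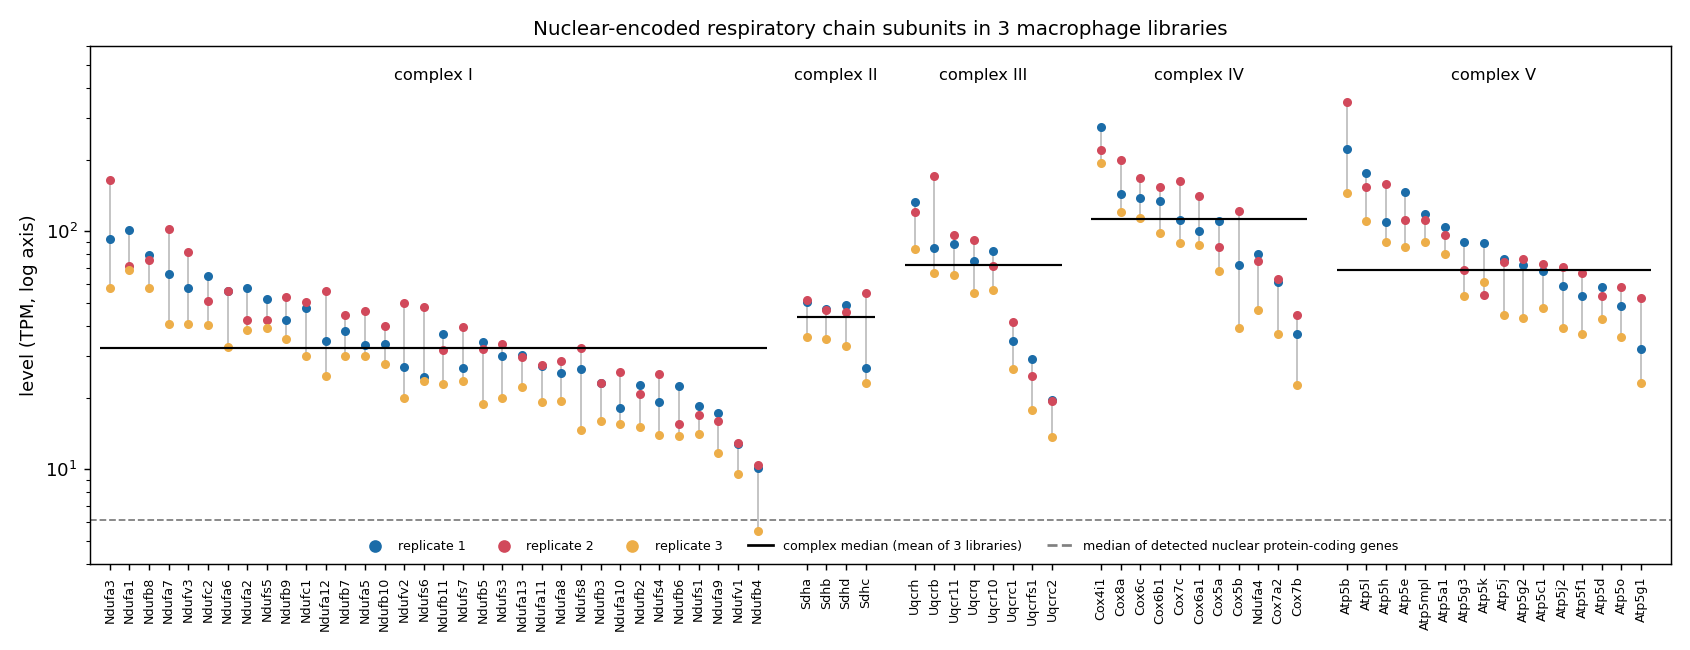
Level in TPM (log axis) of 73 of the 74 subunit genes, ordered by mean within each complex; points are the 3 libraries, black lines the mean of the complex medians and the dashed line the median of detected nuclear protein-coding genes. Complex IV has the highest median, 112 TPM, complex I the lowest, 32.2 TPM, and replicate 3 is the lowest point for nearly every gene.

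Complex I takes electrons from NADH, and its nuclear core subunits carry the flavin and the iron-sulfur clusters. Ndufv1, the NADH-binding flavoprotein, had the lowest mean of the 7 nuclear core genes at 11.8 ± 1.89 TPM, with 12.8, 12.9 and 9.57 TPM. Ndufs1, which carries several iron-sulfur clusters, had 16.4 ± 2.23 TPM, and Ndufv2 had 32.2 ± 15.6 TPM. The median over core subunits was 26.7, 33.6 and 19.9 TPM, and that over the 28 accessory subunits was 34.4, 42.4 and 26.1 TPM, higher in each library.

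The accessory subunits ranged more widely than the core. By mean, Ndufa3 was the highest of complex I, with 92.3, 165 and 57.8 TPM, followed by Ndufa1, needed for assembly of the membrane arm, with 101, 71.5 and 68.9 TPM and Ndufb8 at 79.3, 75.9 and 57.9 TPM. These 3 overlapped each other, and Ndufa1 was above Ndufa3 in replicates 1 and 3. Ndufb4 was the lowest, with 10.2, 10.4 and 5.51 TPM, next to Ndufv1. The gene lies at chr16:37647170-37654453 on the minus strand of mm10. A processed pseudogene named Ndufb4c, at chr15:73809507-73809896, shares 360 of the 941 sequence words of 31 bases in the main Ndufb4 transcript and was given 43.1, 46.2 and 31.7 TPM, more than Ndufb4 in each library. Reads from the shared stretch cannot be told apart, so the low value of Ndufb4 is uncertain. On rescaled TPM, the sum of both genes was 159 in the gene table and 162 in the second quantification.

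Ndufv3, an accessory subunit of the NADH-binding module, has a long and a short isoform. The short transcript of 493 bases had 53.8, 78.6 and 38.4 TPM and the long transcript of 1582 bases 3.75, 2.83 and 2.06 TPM. The short form thus held 93.1%, 96.5% and 94.5% of the gene's TPM, and 93.1%, 95.8% and 94.1% in the second quantification.

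Complex II, succinate dehydrogenase, has no mitochondrially encoded subunit, and its 4 genes had the most even levels of any complex, with a 1.32-fold range of means. Sdha, the flavoprotein that oxidises succinate, had 50.2, 51.4 and 36.0 TPM. Sdhb, the iron-sulfur subunit, had 47.0, 46.5 and 35.1 TPM, and Sdhd, a membrane anchor, had 48.8, 45.9 and 32.9 TPM. The values of these 3 genes overlapped, and all were lowest in replicate 3. Sdhc, the other anchor, had 26.6, 55.0 and 23.1 TPM, below the other 3 genes in replicates 1 and 3 and above them in replicate 2. This pattern was of TPM and not of counts, where Sdhc had 6.05, 6.23 and 6.18 log2 CPM, with adjusted p = 1 in the edgeR test of spread between libraries that is described with Uqcrb. The TPM difference lay in its transcript of 815 bases, at 12.4, 42.8 and 12.6 TPM, while the transcript of 3171 bases was at 13.1, 10.4 and 10.04 TPM.

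Complex III passes electrons from ubiquinol to cytochrome c. Uqcrh, the hinge protein that holds cytochrome c1, had the highest mean at 132, 120 and 83.8 TPM. Uqcrb, a subunit near the quinone site, followed at 85.1, 170 and 66.9 TPM, and Uqcr11 had 88.7, 96.7 and 65.4 TPM. The small subunits Uqcrq and Uqcr10 were at 73.8 ± 18.4 and 70.0 ± 13.2 TPM. The large subunits were lower by TPM. The core proteins Uqcrc1 and Uqcrc2 were at 34.3 ± 7.67 and 17.5 ± 3.39 TPM, and the Rieske iron-sulfur protein Uqcrfs1 at 23.8 ± 5.73 TPM. On counts these large subunits were above Uqcrq and Uqcr10 in each library. Uqcrc1 had 2704, 3050 and 4157 counts against 995, 765 and 1350 for Uqcr10. The order of these genes by TPM thus rests on the length correction. Uqcrc2 was at 19.5, 19.4 and 13.6 TPM, below every other complex III subunit of the symbol rule in each library. Uqcrc1 was above it although the 2 core proteins sit together in the complex. Cyc1, the cytochrome c1 gene, lies outside the symbol rule and had 14.4, 14.3 and 11.0 TPM, below Uqcrc2 in each library.

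Complex IV, cytochrome c oxidase, had the highest levels. Cox4i1, the largest nuclear subunit and a site of regulation by ATP, had 273, 218 and 194 TPM, the highest of the complex in each library. Cox8a had 143, 200 and 120 TPM and Cox6c 138, 167 and 113 TPM. Cox6b1 at 128 ± 27.9, Cox7c at 121 ± 37.8 and Cox6a1 at 109 ± 27.7 TPM followed, and these 5 genes overlapped. The lowest were Cox7a2 at 60.9, 63.1 and 37.1 TPM and Cox7b at 37.1, 44.3 and 22.5 TPM, and Cox7b was below Cox7a2 in each library. Ndufa4 had 80.3, 74.7 and 46.6 TPM. At Cox4i1, a readthrough gene on the same strand named Gm20388 covers the locus and was given 10.2, 18.5 and 6.87 TPM.

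Complex V has a catalytic F1 head, a rotating ring of c subunits in the membrane and a stalk that holds the head. Atp5b, the catalytic beta subunit, had 222, 348 and 144 TPM, the highest mean of all members, though above Cox4i1 in replicate 2 only. Atp5l, a membrane subunit, had 175, 154 and 110 TPM, and Atp5h, of the stalk, had 109, 158 and 89.95 TPM. Atp5a1, the alpha subunit that alternates with beta in the head, had 105, 96.3 and 80.3 TPM, below Atp5b in each library. By gene level the lowest were Atp5o and Atp5g1, a c-ring gene. Atp5o, the stalk subunit that binds the head, had 48.4, 58.2 and 36.0 TPM, and Atp5g1 had 32.0, 52.2 and 23.1 TPM. The medians of the 5 head genes, 3 ring genes and 8 stalk and membrane genes were 93.8 ± 12.3, 61.4 ± 15.9 and 69.3 ± 15.2 TPM, with Atp5d the lowest head gene at 51.4 ± 7.98 TPM. Atp5s, which is not a subunit, had 2.64, 3.49 and 1.22 TPM.

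A level summed over a gene can include transcripts that do not encode the protein, and 11 of 74 subunits had under 80% of their TPM in transcripts annotated as protein-coding, 10 of them also in the second quantification. Another 2 were under 80% in the second quantification only, Cox7b at 56.1% against 97.2% and Ndufb4 at 76.4% against 99.5%. In 54 of 74 the share was over 95%. For Atp5b, protein-coding transcripts had 110, 119 and 82.5 TPM, and a processed transcript of 478 bases had 71.7, 207 and 48.1 TPM. The high TPM of the gene in replicate 2 thus lay in the short transcript, while on counts it had 8.24, 8.42 and 8.24 log2 CPM. The coding level of Atp5b, 104 ± 18.9 TPM, overlapped the gene level of Atp5a1. Ndufa5 had the lowest coding share, 15.8% ± 1.54, with 5.83, 6.70 and 4.63 TPM in coding transcripts of a gene level of 36.5 ± 8.53 TPM. Ndufs4, an accessory subunit whose loss is a known cause of Leigh syndrome, had 24.8% ± 0.747, with 4.82, 6.34 and 3.33 TPM in coding transcripts and 8.91, 16.1 and 7.81 TPM in a transcript of 571 bases annotated for nonsense-mediated decay. On coding transcripts, Ndufs4 and Ndufa5 were thus below Ndufb4 in mean.

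The other genes of this kind were Atp5j at 35.2% ± 5.42, Ndufc1 at 43.2% ± 7.42, Ndufa3 at 51.2% ± 5.06, Atp5f1 at 53.2% ± 11.1 and Cox5b at 64.9% ± 16.1, with Ndufa10 at 77.2%, Ndufs7 at 77.6% and Ndufb2 at 78.6%. Of Ndufa3, 49.1, 80.5 and 24.7 TPM were in a transcript of 343 bases annotated for nonsense-mediated decay, and its coding transcripts had 53.0 TPM in mean, below the 80.5 TPM of Ndufa1. Cox5b varied between libraries, with a coding share of 55.9%, 55.3% and 83.4%, and its processed transcript of 362 bases had 31.7, 54.5 and 6.25 TPM. In coding transcripts Atp5j had 22.4 ± 5.08 and Atp5f1 28.0 ± 9.51 TPM, both below Atp5g1 at 35.8 TPM in mean. Atp5j overlaps Gabpa, on the other strand, by 701 bases, and Atp5f1 overlaps Wdr77, also on the other strand, by 731 bases. Gabpa had 8.95 ± 1.73 and Wdr77 3.65 TPM in mean, and whether counting used strand is not given in the sources used here.

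**Figure D2:**
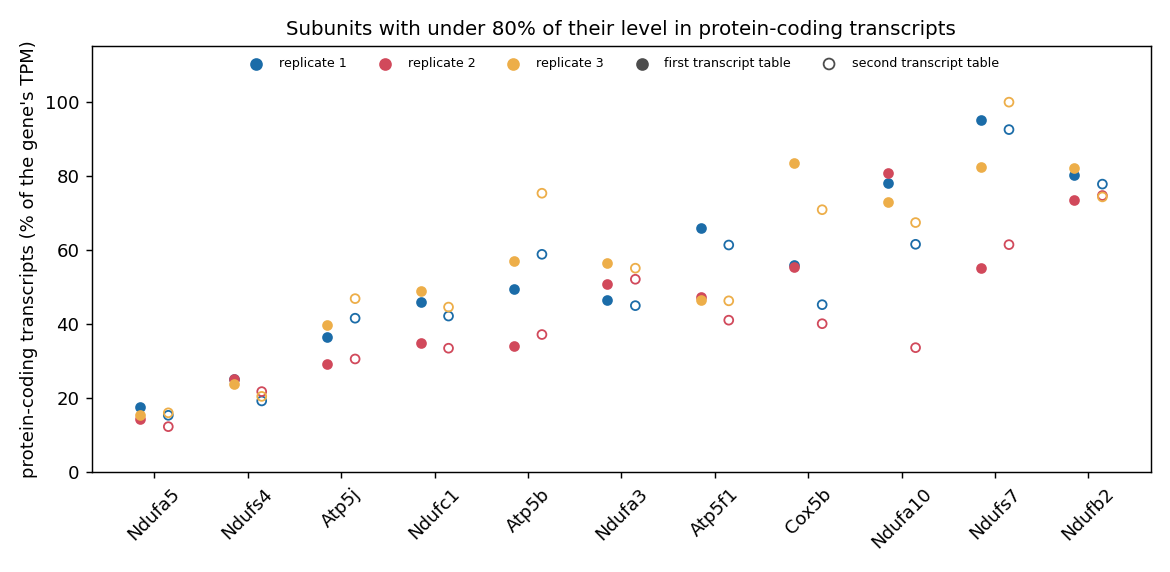
Share of each gene's TPM in transcripts annotated as protein-coding, for the 11 subunits under 80% in the first transcript table; filled points are the first transcript table, open points the second, and colours the 3 libraries. Ndufa5 and Ndufs4 lie under 30% in every library and both tables, while Ndufs7 and Atp5b vary by library.

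Several subunits have paralogs made in particular tissues, and in each such family the broadly expressed gene had the higher level. Cox8b of striated muscle, Cox8c and Cox7b2 of testis and Ndufa4l2, a gene known to respond to low oxygen in smooth muscle and pericytes, had 0 counts in all 3 libraries. With 3 counts per library as the limit that a count of 0 allows, Cox8a was at least 368-fold higher than Cox8b and at least 615-fold higher than Cox8c in the library with the smallest bound. Cox7b was at least 216-fold higher than Cox7b2, and Ndufa4 at least 690-fold higher than Ndufa4l2. These limits cover counting error only. Cox4i2, an isoform of lung known to respond to low oxygen, had 1, 0 and 1 counts, under the 3-count limit in each library.

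The other paralogs had reads. Cox7a1, an isoform of heart and skeletal muscle, had 40, 62 and 65 counts and 4.24, 7.42 and 3.40 TPM, which was 6.51%, 10.5% and 8.39% of its sum with Cox7a2. It was below Cox7a2 by 3.20 on the log2(TPM + 1) scale (SE 0.16; -3.56, -2.93 and -3.12 per library), with adjusted p = 4.32e-89 in limma, lower in 3 of 3 libraries. Most genes differ from any given gene, and 96.8% of genes tested differed from Cox7a2 by this test. The SD of the 3 values was 0.326. The test draws its variance from all genes of the fit, which share the same reference gene. The size of p thus does not measure the spread of this pair alone, here and for the other pairs tested with limma. Cox6a2, the heart and muscle isoform of Cox6a1, had 16, 32 and 22 counts and 0.64, 1.39 and 0.44 TPM, or 0.637%, 0.981% and 0.501% of the pair. Cox6b2, an isoform of testis, had 1, 5 and 4 counts. Of the 8 striated muscle markers, 6 had 0 counts in every library, Ckm, Myh7 and Tnnt2 among them, and all 8 had means under 0.1 TPM. The male germ cell markers had means under 0.1 TPM as well, with 5 of 7 at 0 counts in every library and Ddx4 the highest at 0.12, 0.02 and 0.04 TPM. Cox6a2 lies wholly within Itgad on the opposite strand, which had 0.04 TPM in mean. Cox7a1 shares no 31-base word with another gene.

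AA467197 encodes NMES1, a paralog of Ndufa4 that is known to be induced by inflammatory stimuli and to take the place of NDUFA4 in complex IV. It had 0.51, 0.34 and 0.21 TPM, or 0.631%, 0.453% and 0.449% of its sum with Ndufa4. It was low in each library and lowest in replicate 3. It lies outside the symbol rule, and its level in cells without Lipid A was not analysed here.

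Cox7a2l is a relative of Cox7a2 that works in joining complexes III and IV, and C57BL/6J mice are known to carry a shortened form of the protein. It had 118, 107 and 66.8 TPM against 60.9, 63.1 and 37.1 TPM for Cox7a2, and the levels did not overlap. The difference was 0.84 on the log2(TPM + 1) scale (SE 0.14; 0.94, 0.75 and 0.83 per library), higher in 3 of 3 libraries with adjusted p = 4.38e-09 in limma. Cox7a2l thus took 64.4% ± 1.51 of the sum of both.

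**Figure D3:**
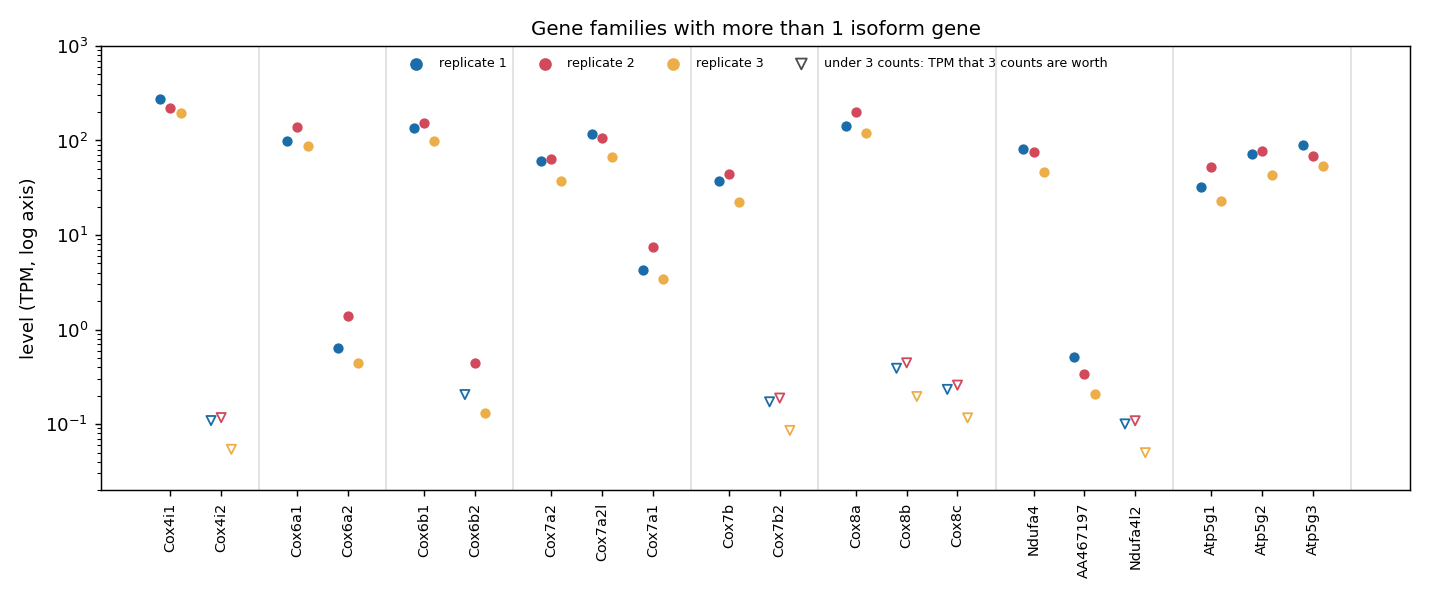
Level in TPM (log axis) of each gene in 8 subunit families; filled points are the 3 libraries, and open triangles mark libraries with under 3 counts, drawn at the TPM that 3 counts are worth. In 7 families the tissue-specific genes lie well below the broadly expressed gene, while the 3 c-ring genes lie close together.

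The c ring is built from 1 mature protein that the 3 genes Atp5g1, Atp5g2 and Atp5g3 encode with different import sequences. In the gene table Atp5g2 had 72.4, 76.7 and 43.1 TPM and Atp5g3 89.6, 68.6 and 53.2 TPM. Atp5g1 was lower than Atp5g2 by 0.86 (log2(TPM + 1), SE 0.15; -1.15, -0.55 and -0.87 per library), lower in 3 of 3 libraries with adjusted p = 1.99e-08 in limma. Atp5g3 and Atp5g2 did not pass the test, with a difference of 0.15 (SE 0.15; 0.30, -0.16 and 0.30 per library), higher in 2 of 3 libraries, and adjusted p = 0.334. Of the genes tested, 97.3% differed from Atp5g2 by this test.

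The level of Atp5g2 differed between the quantifications, and that of a pseudogene differed the other way. How reads were divided between them was not tested. The main Atp5g2 transcript shares 615 of 701 words of 31 bases with Gm10175. This is a transcribed processed pseudogene at chr7:23946646-23947290 on the minus strand of mm10. On TPM rescaled to nuclear protein-coding genes, Atp5g2 had a mean of 205 and Gm10175 of 55.4 in the gene table, and 24.2 and 258 in the second quantification. Their sum was 261 and 282. In the second quantification, Atp5g1 was higher than Atp5g2 by 1.97 (adjusted p = 0.00718) and Atp5g3 by 2.95 (adjusted p = 6.69e-05, both in limma). With Gm10175 added to Atp5g2, a setting chosen after seeing the data, Atp5g2 took 43.1% ± 1.22 of the c-ring sum in the gene table and 45.8% ± 1.57 in the second. Atp5g1 then took 18.9% ± 4.79 and 17.8% ± 3.98, and Atp5g3 38.0% ± 5.39 and 36.4% ± 4.97. Atp5g1 was then lower than Atp5g2 in both quantifications, at -1.196 and -1.312 on the log2 scale (adjusted p = 7.88e-14 and 1.96e-12 in limma).

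Atp5g2 was the 1 subunit whose level differed more than 2-fold between quantifications on the rescaled scale, by 8.48-fold, and the other 73 differed under 1.5-fold. The main transcripts of 21 of 74 subunits shared at least 20% of their 31-base words with another gene, mostly processed pseudogenes, and 41 shared under 5%. Atp5l shared 69.7% and Atp5g1 67.3% in all. For Cox7c, which shared 55.7%, a short pseudogene named Gm12338 was given 83.1, 185 and 109 TPM against 111, 163 and 88.8 TPM for Cox7c. On the rescaled scale Cox7c and Gm12338 had a sum of 799 in the gene table and 492 in the second quantification, while Cox7c itself had a ratio of 0.994 between them.

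**Figure D4:**
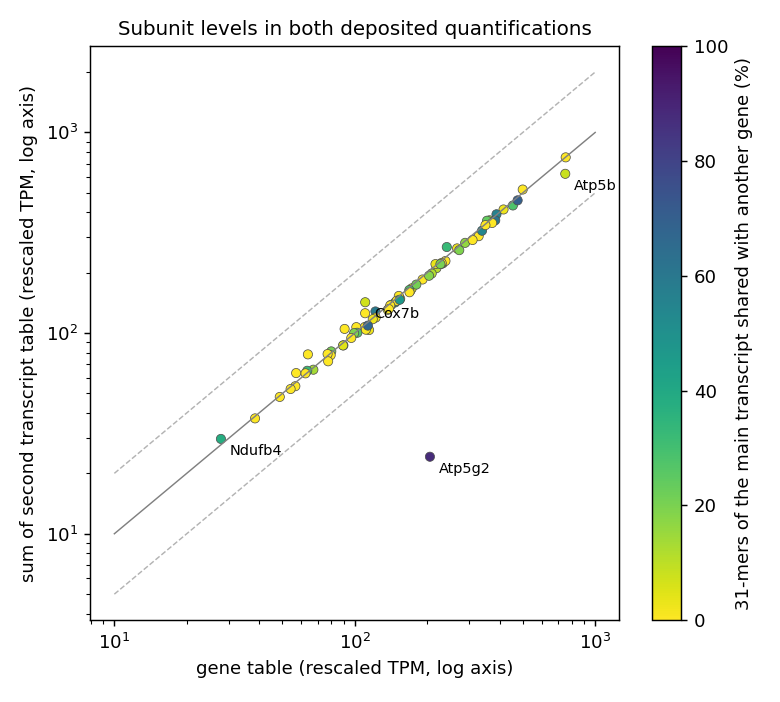
Mean level of the subunits in the gene table (x) and as the sum of the second transcript table (y), both as TPM rescaled to nuclear protein-coding genes on log axes; colour is the share of 31-base words shared with another gene, the solid line is equality and the dashed lines mark 2-fold differences. Atp5g2 alone lies outside the dashed lines.

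The spread between libraries was tested per gene on counts with edgeR's goodness-of-fit test against the trend of all genes, with Benjamini-Hochberg adjustment. Of 12250 genes, 1.71% varied more than this trend at adjusted p under 0.05, and of the 85 members 78 passed the filter on low counts and 1 was called. Uqcrb, at chr13:66900617-66905378 on the minus strand of mm10, had 1455, 2651 and 2294 counts, or 5.26, 6.11 and 5.34 log2 CPM, and was high in replicate 2 with adjusted p = 0.0416. Its call was lost, with 0 members called, without replicate 1, 2 or 3, with no filter on low counts, with CPM above 1 required in every library and with protein-coding genes alone. Its main transcript shares 54.3% of its 31-base words with other genes, and the 2 pseudogenes that share most, Gm16089 and Gm2962, were given at most 0.77 TPM in a library. Ndufa3, at 4.76, 5.48 and 4.64 log2 CPM with adjusted p = 0.0912, and Ndufv2, at 5.18, 5.95 and 5.22 with adjusted p = 0.0923, were also highest in replicate 2. Atp5k, a membrane subunit of ATP synthase, was lowest there at 4.28, 3.36 and 4.15, with adjusted p = 0.265. None of these 3 passed the test.

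At an unadjusted p under 0.05 there were 10 of 78 members (12.8%), against 6.15% of all genes tested. The median SD of log2 CPM over the 3 libraries was 0.168 for members and 0.162 for all genes. Replicate 1 held the highest value of 37 members, replicate 2 of 31 and replicate 3 of 10, against 30.6%, 37.1% and 32.3% of all genes. The median deviations of members from their own mean were small, at 0.04, 0.01 and -0.02 log2 CPM. Members did not move as 1 block, since replicate 2 was also the lowest library for 34 of them.

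**Figure D5:**
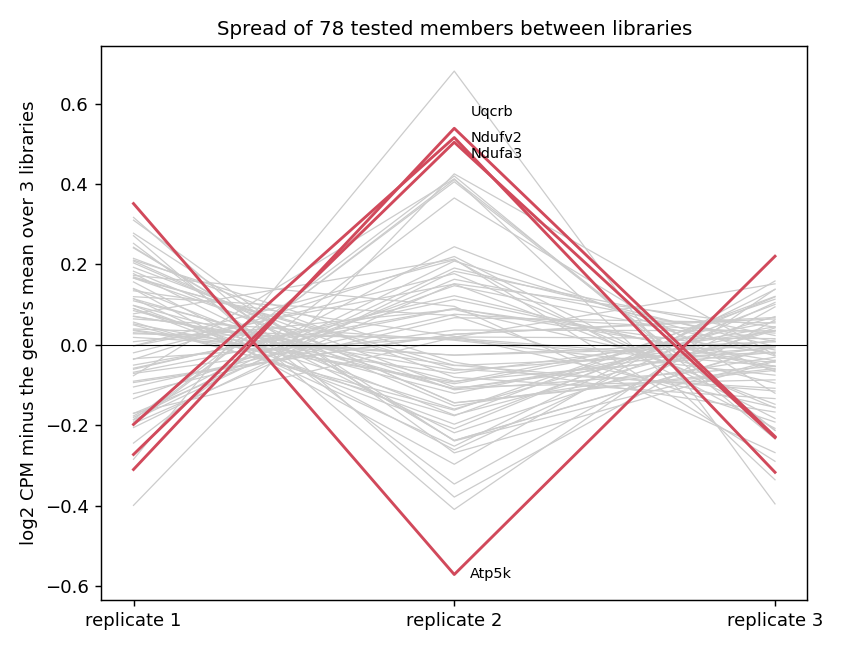
Log2 CPM of each of the 78 tested members minus its mean over the 3 libraries; lines join the values of a gene and the 4 members with the lowest p are in red. Uqcrb, Ndufv2 and Ndufa3 peak in replicate 2, Atp5k is lowest there, and the other lines run in both directions.

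The assembly factors that build the chain were far lower than the subunits by median, though Cox17 was above the subunit median in each library. Of 50 listed assembly factors 49 matched, and 45 were at 1 TPM or more, but their median was 5.30, 5.58 and 3.95 TPM, near that of all detected genes. Cox17, the copper chaperone of complex IV, was the highest at 61.9, 73.7 and 60.3 TPM, followed by Coa5 at 30.8 ± 9.41 and Cox16 at 24.1 ± 4.06 TPM. For complex I the highest were Ndufaf8 at 9.24 ± 1.54, Tmem126b at 8.71 ± 1.53 and Ndufaf3 at 6.26 ± 1.92 TPM. For complex II, Sdhaf2, which attaches the flavin to Sdha, had 13.2 ± 3.31, Sdhaf4 7.59 ± 1.88 and Sdhaf1 1.22 ± 0.259 TPM. For complex III, Uqcc2 had 23.3 ± 4.30, Uqcc3 12.5 ± 3.70 and Uqcc1 10.2 ± 3.39 TPM. The 3 factors of complex V, Atpaf1, Atpaf2 and Tmem70, lay between 5.24 and 6.59 TPM. Pet117, of complex IV, had 0 counts in all 3 libraries. None of the 48 tested assembly factors was called in the spread test, where 1.71% of all genes were.

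Among other genes of the chain, Atpif1, the inhibitor of reverse ATP synthase activity, was at 179, 284 and 127 TPM, in the range of Atp5b. Etfb, which carries electrons from fatty acid oxidation, had 34.3 ± 7.22 and Higd2a, a complex IV factor, 31.7 ± 9.29 TPM. Cycs, the somatic cytochrome c, had 5.94, 11.5 and 5.47 TPM. This was below every complex III and IV gene of the 74 subunits in the same library. Cyct of testis had 0 counts. The regulators with the highest levels were Yy1 at 9.48 ± 2.19, Gabpa at 8.95 ± 1.73 and Esrra at 7.49 ± 0.971 TPM. The coactivator Ppargc1a had 0.01, 0.02 and 0.01 TPM and Esrrg 0 counts, both known for roles in muscle and brown fat.

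The 13 subunits encoded in mitochondrial DNA had a median of 215, 421 and 267 TPM, which was 4.09, 7.84 and 7.29 times that of the nuclear subunits in replicates 1, 2 and 3. By this median they were lowest in replicate 1, as were 9 of the 13 genes. By TPM the highest were mt-Atp8 at 1467, 3371 and 1754, mt-Co1 at 924, 1621 and 1085 and mt-Nd1 at 316, 584 and 395. On counts mt-Atp8 was far below mt-Co1, with 1747, 2823 and 3949 against 66865, 110027 and 158770. Its rank by TPM thus rests on the length correction, by which 3 counts were worth 2.52, 3.58 and 1.33 TPM. Of 12 tested, mt-Atp6, mt-Nd6 and mt-Nd4l were called in the spread test, against 1.71% of all genes, and 8 of 12 had an unadjusted p under 0.05, against 6.15% of all genes. The gene that did not pass the filter, mt-Co2, had 767, 0 and 644 counts, or 30.4, 0 and 12.7 TPM. How reads were divided among mitochondrial genes was not tested, so their single values are uncertain. How much of the mitochondrial RNA came from organelles in the cytosolic fraction was not tested.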

How the data were processed

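RNA of the cytosolic fraction of Lipid A-treated macrophages was measured by total RNA sequencing in 3 libraries. The deposited notes name build mm10 and annotation GENCODE M21. The authors' gene table and first transcript table, made by aligning reads to the transcriptome, give an expected count and TPM for each feature. The authors' second transcript table was made straight from the reads and gives an estimated count and TPM for each transcript. The sources used here give no quantification tool, tool version or strand setting. Features that are no gene held 0.314%, 0.093% and 0.053% of counts and were left out.

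The members, lists, tests and alternatives were chosen with earlier results of these data known. Expected counts were rounded and fitted with edgeR 4.0.16 (TMM, its default filter, goodness of fit against the trended dispersion). Pairs with both means of at least 1 TPM were tested with limma 3.58.1 on log2(TPM + 1) over protein-coding genes of at least 0.1 TPM, each gene set against the reference gene within a library; Benjamini-Hochberg adjustment covered all genes of a fit. Both were tested on simulated data. Named genes were the 3 highest and 2 lowest subunits of each complex, core subunits by range, paralogs, genes called or near it in the spread test, genes that differ over 2-fold between tables on rescaled TPM, and the 3 highest and any under 0.1 TPM of the other lists. Isoform and shared-sequence examples were picked after their values were seen. Complex medians have no test. Words of 31 bases of each main transcript were searched in all GENCODE M21 transcripts. RefSeq windows were searched for 4 motifs. Precision is set by 3 libraries and by counting error of the given totals. The values of 1 subunit gene are not reported here by name, though it is part of the counts and medians.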

Additional observations from a re-analysis of the deposited data

How the results depend on the processing

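Of the comparisons with a test, those of Cox7a2l and of Cox7a1 with Cox7a2 kept direction and call under every alternative run, from 0.79 to 1.87 and from -3.93 to -2.54 (log2). Leaving out 1 replicate gave 0.79 to 0.89, -3.34 to -3.02, -1.01 to -0.71 (Atp5g1 to Atp5g2) and 0.07 to 0.30 (Atp5g3 to Atp5g2), with calls as in the full data. The second transcript table reversed Atp5g1 to Atp5g2 to 1.97 and gave a call for Atp5g3 to Atp5g2 at 2.95. Adding Gm10175 to Atp5g2, chosen after seeing the data, turned Atp5g3 to Atp5g2 to -0.19 in the gene table and -0.33 in the second table, where its adjusted p in limma was 0.0467. The count of members varying between libraries, 1, was 0 with no filter, with CPM above 1, with protein-coding genes alone and without replicate 1, 2 or 3; the cause was not tested.

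Median levels of complexes I to V moved by construction to 104, 142, 234, 365 and 223 TPM on the rescaled scale, and to 13.9, 18.5, 30.4, 49.5 and 28.8 TPM in the second table, where such genes held less of the TPM. Including paralogs lowered complex IV to 57.9 TPM. Leaving out 1 replicate gave 28.3 to 36.6, 40.9 to 48.4, 67.2 to 80.1, 98.6 to 125 and 61.9 to 78.0 TPM. No paired analysis was possible because all libraries form 1 group. Depth limits the paralogs under 3 counts.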
